A study of Mus musculus with 8 samples.

Results

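The lysyl oxidases and collagen hydroxylases described here are 10 genes taken by name from the 41730 rows of the deposited count table. They comprise the lysyl oxidases Lox, Loxl1, Loxl2, Loxl3 and Loxl4, the lysyl hydroxylases Plod1, Plod2 and Plod3, and the catalytic alpha subunits P4ha1 and P4ha2 of prolyl 4-hydroxylase. The rule that picks them uses names and no measured value, although earlier results of these data were known when the families were chosen. All 10 had at least 1 count. RNA was sequenced from spheroids of 4T1, a BALB/c mouse mammary carcinoma line that metastasises readily and lacks hormone receptors. In one group the cells carried a lentivirus for a hairpin RNA against Tlr7 (shTlr7, n = 4), and in the other a lentivirus for a scrambled hairpin RNA (shCtrl, n = 4). Spheroids of both groups were grown in hanging drops in DMEM with fetal bovine serum. The labels do not say whether the transduced cells were clones or pools, and they name no separate cultures behind the 4 libraries of a group, so the p-values reflect the variation among these libraries alone, which could be technical.

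Both enzyme classes act on collagen as it is made and assembled. Inside the endoplasmic reticulum, prolyl 4-hydroxylases modify proline so that the triple helix is stable at body temperature, and lysyl hydroxylases modify lysine, which sets the kind of cross-link that can form and allows sugars to be attached. Both use oxygen, iron, 2-oxoglutarate and ascorbate. After secretion, the copper-dependent lysyl oxidases oxidise lysine and hydroxylysine in collagen and elastin, and the resulting aldehydes form the covalent cross-links that stiffen the matrix. In breast tumours these enzymes are known for matrix stiffening, invasion and preparation of metastatic sites, and several of them are known to be induced by hypoxia.

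Library totals ranged from 18.1 to 93.8 M counts. Tlr7, the targeted gene, had 0 to 4 counts in the shTlr7 libraries and 2 or 3 counts in the shCtrl libraries, so the labels could not be checked by it at this depth. Of 8 epithelial markers, 7, Epcam and Cdh1 among them, were above 1 CPM in every library, with sums of 4099 to 4381 CPM in shTlr7 and 5577 to 6051 CPM in shCtrl, while Krt5 had 0 counts. Epcam and Cdh1 had log2 fold changes of 0.15 and 0.20, whereas all 5 keratins tested fell. The log2 fold changes were -3.50 for Krt14 (3.26 ± 1.08 CPM in shTlr7 and 36.2 ± 2.95 CPM in shCtrl), -1.19 for Krt7, -0.69 for Krt19, -0.47 for Krt18 and -0.37 for Krt8. Summed CPM (the usual depth-normalised unit, with TMM-scaled library sizes) of 9 fibroblast markers lay between 43.2 and 48.2 in shTlr7 and between 44.3 and 46.6 in shCtrl, nearly all of it Pdgfra, and Dpt, Thy1 and Col3a1 had 0 counts. The 6 endothelial markers together stayed under 1 CPM in every library, at up to 0.795 in shTlr7 and 0.809 in shCtrl. The 8 leukocyte markers summed to 31.5 to 44.4 CPM in shTlr7 and 23.2 to 28.2 in shCtrl, most of it Cd68, with Adgre1 and Lyz2 at 0. Among them Csf1r went the other way, at 0.241 ± 0.0554 CPM in shTlr7 and 1.14 ± 0.200 CPM in shCtrl. The 6 pericyte and smooth muscle markers summed to 4.76 to 6.78 CPM in shTlr7 and 7.49 to 9.37 in shCtrl, most of it Notch3. The part of these marker differences in the results was not tested. The library numbered 4 of each group stood apart from the others of its group on the second principal component, both in the same direction. They lay at -12.4 (shCtrl replicate 4) and -9.81 (shTlr7 replicate 4), and all other libraries between 0.334 and 5.64.

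On GRCm38, with GENCODE M21 gene models, Loxl4 lies on chromosome 19 (42593982 to 42612813), Loxl3 on chromosome 6 (83034173 to 83052562), and Loxl1 (58287738 to 58313186) and Plod2 (92542223 to 92608428) far apart on chromosome 9. P4ha1 lies on chromosome 10 (59323296 to 59373304), P4ha2 on chromosome 11 (54100095 to 54131665), Plod1 on chromosome 4 (147909753 to 147936767) and Plod3 on chromosome 5 (136987019 to 136996648). RefSeq promoter sequences (GRCm38.p6) were matched for 5 members, P4ha1, P4ha2, Plod1, Plod3 and Loxl4. The sequences of the pair that fell together, P4ha1 (chr10:59323046-59323285, plus strand) and P4ha2 (chr11:54100674-54100913, plus strand), and of the pair that rose, Loxl4 (chr19:42612817-42613056, minus strand) and Plod1 (chr4:147936787-147937026, minus strand), are shown from 250 to 11 bases before the RefSeq start, 5′ to 3′ on the gene's strand. For P4ha2 that start lies downstream of the GENCODE M21 start, so its window lies inside the GENCODE gene model, in no annotated exon. Capitals mark ACGTG or GCGTG on either strand, the core letters of the element that hypoxia-inducible factors are known to bind.
P4ha1: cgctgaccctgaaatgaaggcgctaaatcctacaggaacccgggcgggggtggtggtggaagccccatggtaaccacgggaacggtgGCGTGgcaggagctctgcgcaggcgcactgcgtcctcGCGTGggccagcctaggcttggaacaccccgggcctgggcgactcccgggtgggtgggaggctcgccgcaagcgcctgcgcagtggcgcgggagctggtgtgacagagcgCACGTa
P4ha2: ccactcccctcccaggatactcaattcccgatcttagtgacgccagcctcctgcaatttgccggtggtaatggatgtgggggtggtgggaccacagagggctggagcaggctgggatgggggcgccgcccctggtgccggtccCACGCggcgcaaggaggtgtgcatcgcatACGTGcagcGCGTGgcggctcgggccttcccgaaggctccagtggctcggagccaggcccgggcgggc
Loxl4: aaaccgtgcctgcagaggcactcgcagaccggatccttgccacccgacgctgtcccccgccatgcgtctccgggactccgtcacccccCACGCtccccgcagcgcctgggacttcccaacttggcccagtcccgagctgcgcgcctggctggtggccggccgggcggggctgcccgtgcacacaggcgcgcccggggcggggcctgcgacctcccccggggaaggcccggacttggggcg
Plod1: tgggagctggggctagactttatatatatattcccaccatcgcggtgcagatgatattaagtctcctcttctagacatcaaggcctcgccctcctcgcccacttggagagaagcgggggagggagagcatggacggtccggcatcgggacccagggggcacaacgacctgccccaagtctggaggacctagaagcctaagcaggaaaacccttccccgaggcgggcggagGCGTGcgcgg

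The letters ACGTG occur once in the P4ha1 window, 16 bases before the RefSeq start, and once in the P4ha2 window, 78 bases before it, whereas neither the Loxl4 nor the Plod1 window holds them. For Loxl1, Loxl3 and Plod2, which also fell, no promoter sequence was matched. The Plod3 window, of a gene that did not pass the test, holds ACGTG once, 54 bases before the start, and 198 of its 240 bases lie in annotated exons. GCGTG occurs 2 times in the P4ha1 window, 2 times in the P4ha2 window, 3 times in the Plod3 window and once each in the Loxl4 and Plod1 windows. Over all 32851 RefSeq promoter windows of this length, 15.9% hold ACGTG and 27.1% hold GCGTG. The letters TGANTCA, the AP-1 element, were in none of the 5 member windows (6.58% of all windows). A core of the interferon-stimulated response element was found only in the Plod3 window, 25 bases before the start (2.87% of all windows). All these motifs were searched on both strands, and ACGTG and GCGTG matches did not overlap in the windows shown. GC content of the windows was 69.2% for P4ha1, 68.8% for P4ha2, 75.8% for Loxl4 and 60.4% for Plod1. These matches are a description of sequence, and binding was not measured.

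Per length of exon, the members with the highest levels in both groups were Loxl4 among the lysyl oxidases, Plod2 and Plod3 among the lysyl hydroxylases, and both prolyl 4-hydroxylase subunits. Levels between genes are given in CPM per kb of exon sequence. In shTlr7 spheroids the order was led by Loxl4 at 95.1 (range 80.8 to 110.0), followed by P4ha1 at 70.1 ± 5.48 (SD, n = 4), Plod2 at 33.5 ± 3.47, Plod3 at 30.9 ± 0.968, P4ha2 at 18.4 ± 1.16, Plod1 at 2.08 ± 0.248 and Loxl3 at 1.98 ± 0.0870. In shCtrl spheroids P4ha1 led at 99.9 ± 6.25, followed by Loxl4 at 53.5 ± 1.28, Plod2 at 48.3 ± 1.61, Plod3 at 29.8 ± 0.906, P4ha2 (range 24.8 to 31.6), Loxl3 at 6.79 ± 1.23 and Plod1 at 1.51 ± 0.0805. Loxl1 and Loxl2 were under 1 CPM per kb in every library, and Lox had a single count in all. Loxl4 thus stood above P4ha1 in every shTlr7 library and below it in every shCtrl library. Neighbours whose ranges overlapped were Plod2 with Plod3, Plod1 with Loxl3, and Loxl1 with Loxl2 in shTlr7, and Plod3 with P4ha2 in shCtrl.

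The comparison asked which of these transcripts differ in 4T1 spheroids once Tlr7 is targeted. Of the 8 members that passed the filter on low counts, 2 were higher (Loxl4 and Plod1) and 5 lower (Loxl1, Loxl3, Plod2, P4ha1 and P4ha2) in shTlr7, and Plod3 did not pass the threshold (edgeR quasi-likelihood test, Benjamini-Hochberg adjusted p under 0.05 over 13393 genes). Over all genes tested, 56.1% were called, 29.3% as higher and 26.8% as lower. In CPM, 5 of the 8 members lay below every shCtrl library in all shTlr7 libraries (23.8% of all genes tested) and 2 lay above (26% of all genes tested), 7 without overlap in all (49.8%). A change of at least 2-fold was called for Loxl3 and Loxl1 (7.52% of all genes tested), and one of at least 0.5 on the log2 scale for 6 of the 8 (20.6% of all genes tested). Loxl1 would not have passed the filter on low counts on the shTlr7 libraries alone, so these counts are given as a description. The members' median log2 fold change was -0.52, beside 0.01 over all genes tested. Lox and Loxl2 had too few counts for the filter. In these bulk samples, fewer cells that express a gene and less RNA per cell cannot be told apart.

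**Figure D1:**
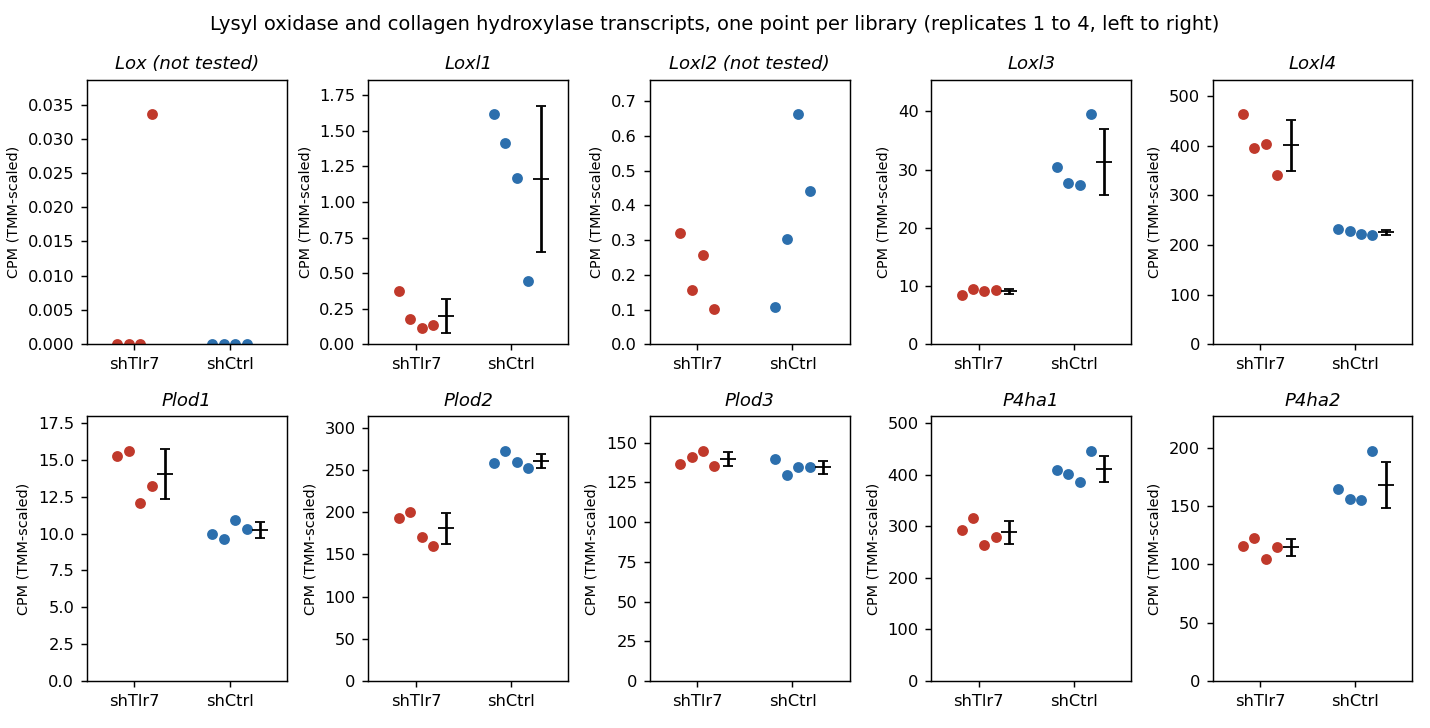
Level of each of the 10 members in CPM with TMM scaling (vertical axes, from 0, a scale of its own per panel) in the 4 shTlr7 libraries (red) and the 4 shCtrl libraries (blue), with mean and SD as a black bar for the 8 tested members. Loxl4 and Plod1 lie higher in all 4 shTlr7 libraries, Loxl1, Loxl3, Plod2, P4ha1 and P4ha2 lie lower, and Plod3 overlaps.

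Among the lysyl oxidases, the most abundant one rose and the next one fell. Loxl4, which encodes a lysyl oxidase with scavenger receptor domains, had 463, 395, 403 and 340.3 CPM in shTlr7 replicates 1 to 4, against 232, 228, 222 and 220.3 CPM in shCtrl replicates 1 to 4. Every shTlr7 library lay above every shCtrl library, and the shTlr7 libraries were the more spread, with an SD of 50.4 CPM against 5.39 CPM. The log2 fold change was 0.83 ± 0.07 (SE), a 1.77-fold rise with a 95% interval from 1.58 to 1.99 (edgeR adjusted p = 2.46e-06). Loxl4 shares no exon sequence with another annotated gene.

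Loxl3, which encodes a close relative of Loxl4 in the same scavenger-receptor branch of the family, had 8.52, 9.43, 9.19 and 9.27 CPM in shTlr7 replicates 1 to 4, against 30.5, 27.7, 27.4 and 39.5 CPM in shCtrl replicates 1 to 4. The groups were far apart, and shCtrl replicate 4 was the highest of all. Its level fell to 9.10 ± 0.401 CPM in shTlr7, against 31.3 ± 5.66 CPM in shCtrl, a log2 fold change of -1.77 ± 0.11 (edgeR adjusted p = 6.52e-08). Leaving out shCtrl replicate 4 gave a log2 fold change of -1.64. About 11.6% of the Loxl3 exon sequence overlaps Htra2 on the opposite strand, and the strand setting of the counting is not given in the sources used here. Htra2 had a log2 fold change of -0.16. A second row of the table that carries the Loxl3 symbol with a copy suffix held 4.44% of the reads of both rows and had a log2 fold change of -1.85.

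Loxl1, known for cross-linking elastin, was close to the limit of detection. It had 7, 17, 4 and 4 counts in shTlr7 replicates 1 to 4 and 30, 70, 23 and 10 counts in shCtrl replicates 1 to 4. In CPM these were 0.375, 0.175, 0.114 and 0.134 in shTlr7, against 1.62, 1.42, 1.17 and 0.442 in shCtrl, so the groups were separated only narrowly, between shTlr7 replicate 1 and shCtrl replicate 4. The log2 fold change was -2.70 ± 0.40, with a 95% interval from -3.57 to -1.83 (edgeR adjusted p = 8.56e-05), and it was -2.96 without shCtrl replicate 4. Loxl1 passed the filter on low counts through the shCtrl libraries, so its call is given as a description.

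The other two lysyl oxidases were too low for the test. Loxl2, which is known to oxidise collagen IV of basement membranes, had 6, 15, 9 and 3 counts in shTlr7 replicates 1 to 4, against 2, 15, 13 and 10 counts in shCtrl replicates 1 to 4. The groups overlapped, with 0.101 to 0.322 CPM in shTlr7 and 0.108 to 0.663 CPM in shCtrl. Pooled over the libraries, 33 counts in shTlr7 stood against 40 in shCtrl, which per TMM-scaled total is a ratio of 0.504 (exact 95% interval 0.308 to 0.819, counting error only). Fitted without the filter on low counts, Loxl2 came to -0.94 ± 0.41 on the log2 scale and did not pass the threshold (edgeR adjusted p = 0.0603). By DESeq2 it came to -0.94 ± 0.56 and did not pass either (DESeq2 adjusted p = 0.183). Lox, the founding member of the family, had 1 count in shTlr7 replicate 4 and 0 counts in the other 7 libraries. A count of 0 allows up to 0.161 CPM in shTlr7 replicate 1 and up to 0.162 CPM in shCtrl replicate 1, the shallowest library of each group, taking 3 counts over the TMM-scaled total.

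The family's makeup differed accordingly. Summed per length, lysyl oxidase RNA came to 97.1 ± 11.9 CPM per kb in shTlr7 and 60.7 ± 1.27 CPM per kb in shCtrl, with no overlap between the groups. Loxl4 held 97.5% to 98.2% of this sum in the shTlr7 libraries and 85.6% to 89.3% in the shCtrl libraries. The share of Loxl3 was 1.65% to 2.43% in shTlr7 and 9.91% to 14.1% in shCtrl. The ratio of Loxl4 to Loxl3 per length was 48.3 ± 8.11 in shTlr7 and 8.06 in shCtrl, where it ranged from 6.09 to 9.01. These sums and shares rest on the same counts as the tests above and were not tested on their own.

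**Figure D2:**
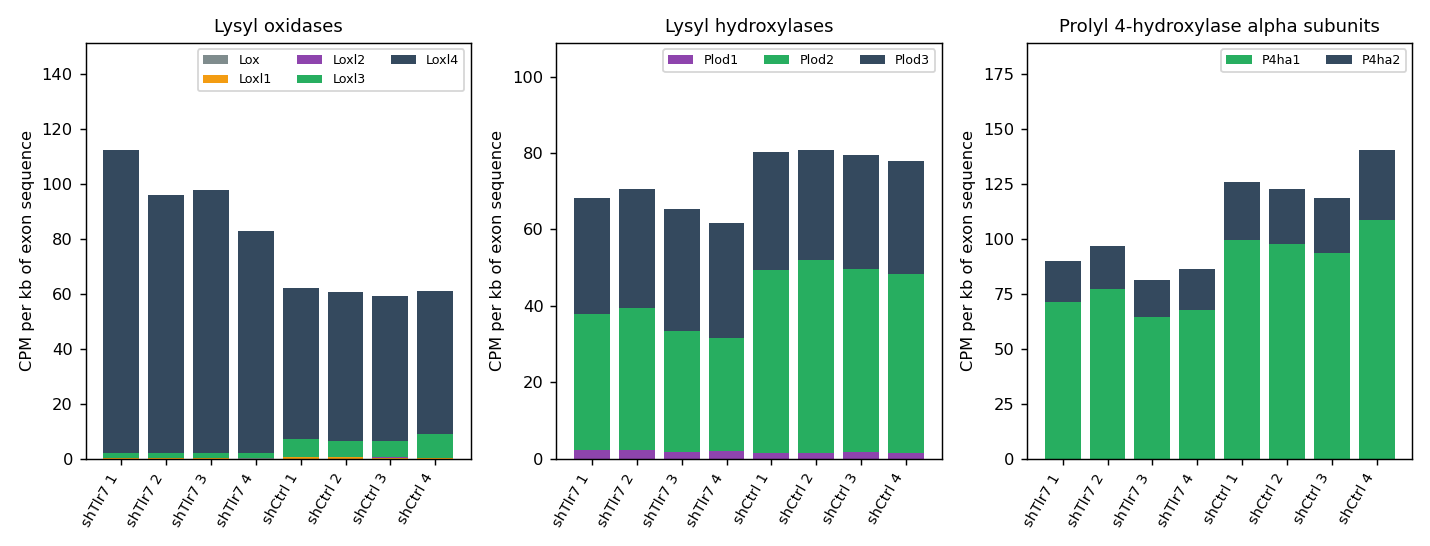
Level per length of exon (CPM per kb, vertical axis from 0) of each member, stacked within its family, in shTlr7 libraries 1 to 4 (left) and shCtrl libraries 1 to 4 (right). Loxl4 fills 97.5% to 98.2% of the lysyl oxidase bar in shTlr7 and 85.6% to 89.3% in shCtrl, Plod2 and Plod3 most of the lysyl hydroxylase bar, and the P4ha1 and P4ha2 layers shrink together in shTlr7.

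The 3 lysyl hydroxylases went different ways. Plod2, which encodes the enzyme that hydroxylates the telopeptides of collagen and so favours hydroxylysine aldehyde cross-links, had 192, 200.3, 170.2 and 160.2 CPM in shTlr7 replicates 1 to 4, against 258, 273, 259 and 252 CPM in shCtrl replicates 1 to 4. All 4 shTlr7 libraries were below all 4 shCtrl libraries. Plod2 fell by 0.53 ± 0.06 on the log2 scale (edgeR adjusted p = 1.63e-05). For Plod2, 6.42% of the exon sequence overlaps Gm38391 on the opposite strand.

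Plod1, which encodes the hydroxylase of lysines in the triple helix, had 15.3, 15.6, 12.1 and 13.2 CPM in shTlr7 replicates 1 to 4, against 9.98, 9.64, 10.9 and 10.3 CPM in shCtrl replicates 1 to 4. The shTlr7 libraries were all higher, the nearest pair being shTlr7 replicate 3 and shCtrl replicate 3. Plod1 rose by 0.47 ± 0.09 on the log2 scale, or 1.38-fold with a 95% interval from 1.21 to 1.59 (edgeR adjusted p = 0.000679). A second row with its symbol and a copy suffix held 1 count in all.

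Plod3, whose product both hydroxylates lysine and transfers sugars to hydroxylysine, had 137, 141, 145 and 135 CPM in shTlr7 replicates 1 to 4, against 139.9, 129.9, 135 and 135 CPM in shCtrl replicates 1 to 4. The groups overlapped, and the libraries differed little within either group. The log2 fold change was 0.05 ± 0.04, with a 95% interval from -0.03 to 0.14, or 0.977-fold to 1.10-fold (edgeR adjusted p = 0.283). Under scaling by library size alone, Plod3 passed the threshold at 0.16 (edgeR adjusted p = 0.00363), a scaling that moved the median of all genes up by 0.10. About 11.9% of the Plod3 exon sequence overlaps Znhit1 on the opposite strand or Mir702, and Znhit1 had a log2 fold change of 0.04.

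Lysyl hydroxylase RNA summed to 66.5 ± 3.92 CPM per kb in shTlr7 and 79.6 CPM per kb in shCtrl (range 78.0 to 80.7). Plod2 made up 48.2% to 52.5% of it in shTlr7 and 59.6% to 62.6% in shCtrl. The ratio of Plod2 to Plod3 per length was 1.09 ± 0.112 in shTlr7 and 1.62 ± 0.0952 in shCtrl, without overlap. Plod1 stayed a minor part, at 3.12 ± 0.264% in shTlr7 and 1.90 ± 0.119% in shCtrl.

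Both prolyl 4-hydroxylase alpha subunits fell, and by similar amounts. P4ha1, the main catalytic subunit in most tissues, had 293, 317, 264 and 279 CPM in shTlr7 replicates 1 to 4, against 409.6, 403, 386 and 447 CPM in shCtrl replicates 1 to 4. All shTlr7 libraries lay below all shCtrl libraries. Its log2 fold change was -0.51 ± 0.06, with a 95% interval from -0.64 to -0.38 (edgeR adjusted p = 8.99e-06). P4ha2, the alternative catalytic subunit, had 116, 123, 105 and 115 CPM in shTlr7 replicates 1 to 4, against 164, 156, 155 and 197 CPM in shCtrl replicates 1 to 4. These groups did not overlap either, and shCtrl replicate 4 was again the highest library. The log2 fold change of P4ha2 was -0.55 ± 0.08, with a 95% interval from -0.72 to -0.39 (edgeR adjusted p = 8.13e-05). Leaving out shCtrl replicate 4 gave -0.48 for P4ha1 and -0.47 for P4ha2.

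The balance between the subunits differed by less than the spread between libraries. The ratio of P4ha1 to P4ha2 per length was 3.82 ± 0.0973 in shTlr7 and 3.73 ± 0.205 in shCtrl, and the ranges overlapped (3.69 to 3.93 in shTlr7 and 3.43 to 3.91 in shCtrl). Their sum was 88.5 ± 6.59 CPM per kb in shTlr7 and 126.9 ± 9.38 CPM per kb in shCtrl. P4hb, the protein disulfide isomerase that forms the beta subunit and also has other roles, had a log2 fold change of -0.06 ± 0.06 (edgeR adjusted p = 0.362). The ratio of P4hb to P4ha1 per length was therefore 5.28 ± 0.260 in shTlr7 and 3.85 ± 0.0697 in shCtrl. P4ha3, another alpha subunit, was low at 5.26 ± 1.02 CPM in shTlr7 and 4.25 ± 0.208 CPM in shCtrl (log2 fold change 0.30, edgeR adjusted p = 0.0670).

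**Figure D3:**
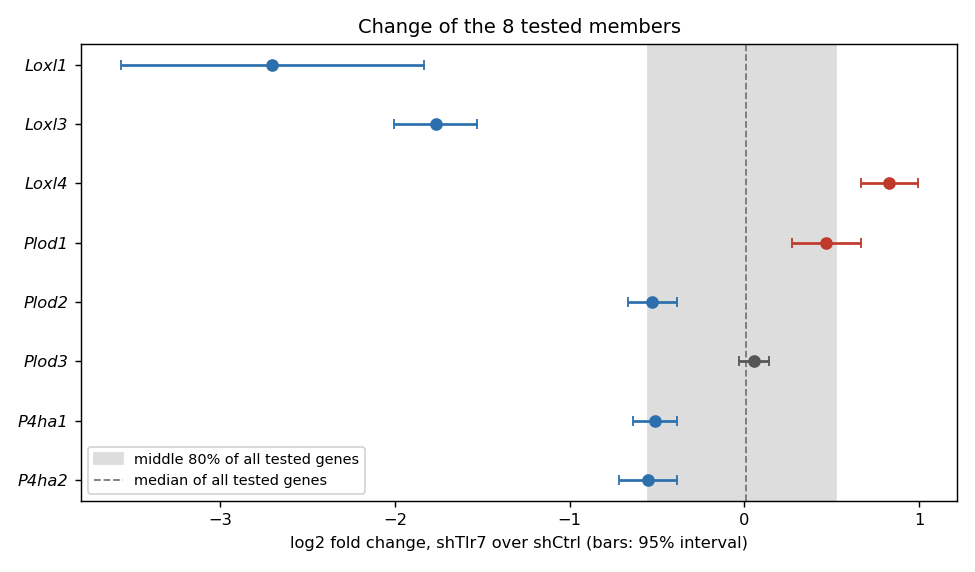
Log2 fold change of shTlr7 over shCtrl (horizontal axis) with its 95% interval for the 8 tested members, with the range between percentiles 10 and 90 of all tested genes (-0.55 to 0.53) shaded and their median dashed. Loxl1, Loxl3 and Loxl4 lie outside the shaded range, P4ha1, P4ha2 and Plod2 lie near its lower edge and Plod1 near its upper edge.

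Around the members, 7 lists of genes on collagen maturation, their cofactors and oxygen sensing held 87 tested genes, of which 18 were higher and 37 lower. Scaling by library size alone changed this split to 29 higher and 27 lower. The share called in these lists is to be read against the 56.1% called over all genes, 29.3% as higher and 26.8% as lower.

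Enzymes and chaperones that modify collagen beside the members went both ways, with 4 of 14 tested genes higher and 6 lower (median log2 fold change -0.01; 6 higher and 3 lower under scaling by library size alone). Ppib, a prolyl isomerase of the collagen prolyl 3-hydroxylase complex, fell to 161 ± 4.16 CPM in shTlr7, against 254 ± 10.2 CPM in shCtrl (edgeR adjusted p = 2.18e-08). Txndc5, a disulfide isomerase, fell to 265 ± 9.72 CPM in shTlr7, against 365 ± 12.8 CPM in shCtrl (edgeR adjusted p = 7.42e-07). P3h1, the catalytic part of that prolyl 3-hydroxylase complex, rose to 18.2 CPM in shTlr7 (range 16.8 to 19.4), against 12.2 ± 0.622 CPM in shCtrl (edgeR adjusted p = 1.37e-05). Of 12 tested genes for collagen export from the endoplasmic reticulum, 3 were higher and 2 lower (median 0.08; 8 and 0 under scaling by library size alone). By limma-voom 8 were higher and 1 lower, and without both libraries numbered 4, 6 were higher and 1 lower. The 2 lower calls dropped to 0 without shCtrl replicate 1 or without shTlr7 replicate 4, and to 1 without any other single library except shCtrl replicate 3. Mia2, which helps load collagen into transport carriers, rose by 0.44 on the log2 scale (edgeR adjusted p = 4.46e-06), and Sec24d, a subunit of the vesicle coat, rose by 0.24 (edgeR adjusted p = 0.0106). Tfg, which organises sites of export, had a log2 fold change of -0.12 (edgeR adjusted p = 0.0276). Tfg did not pass without shCtrl replicate 1 or 2 or without shTlr7 replicate 1 or 4 (edgeR adjusted p up to 0.0840).

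Downstream of the members, genes for procollagen processing and for bringing lysyl oxidases to their substrates were mostly lower, with 8 of 9 tested genes lower and 1 higher (median log2 fold change -0.92). Of all genes tested, 26.8% were called lower and 29.3% higher. Bmp1, the protease that cleaves procollagen and is known to activate the Lox proenzyme, fell to 398 ± 26.1 CPM in shTlr7, against 752 ± 34.7 CPM in shCtrl (log2 fold change -0.92 ± 0.05, edgeR adjusted p = 9.84e-09). Pcolce, which enhances that cleavage, fell to 53.4 ± 2.63 CPM in shTlr7, against 139 ± 3.95 CPM in shCtrl (edgeR adjusted p = 6.56e-11). Pcsk6, a proprotein convertase named here after its value was seen, was the one gene that rose, by 0.41 (edgeR adjusted p = 0.00589). Postn, a matrix protein known to bind Bmp1 that likewise passed the filter through the shCtrl libraries, had the largest fall of the list, at 0.0679 ± 0.0584 CPM in shTlr7 and 5.55 ± 0.954 CPM in shCtrl (edgeR adjusted p = 1.69e-09).

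The substrates were also mostly lower, with 8 of 11 tested genes lower and 1 higher (median log2 fold change -0.41). The shares over all genes tested were 26.8% lower and 29.3% higher. The collagen VI chains Col6a1 and Col6a2 fell, with log2 fold changes of -2.25 and -2.83 (edgeR adjusted p = 2.40e-09 and 3.53e-07). Col12a1, a chain found along fibrils, fell by 1.99 (edgeR adjusted p = 7.69e-08), and Col5a1, which helps start fibrils, fell by 0.76 (edgeR adjusted p = 4.21e-08). Col6a2 and Col12a1 were low, at 1.52 and 3.03 CPM in shTlr7 and 10.5 and 11.98 CPM in shCtrl. The most abundant collagens of the list changed less. Col18a1 averaged 692 CPM in shTlr7 and 822 CPM in shCtrl, and Col7a1 503 and 662 CPM. Col4a1 averaged 380 and 481 CPM, and Col4a2 365 and 377 CPM. Their log2 fold changes were -0.25, -0.40, -0.34 and -0.05, in this order, and all but Col4a2 passed the threshold as lower. The gene of this list that rose, named after its value was seen, was the microfibril gene Fbn1. It was low, at 0.870 ± 0.121 CPM in shTlr7 and 0.312 ± 0.0668 CPM in shCtrl (edgeR adjusted p = 0.000132). Fbn1 passed the filter on low counts through the shTlr7 libraries, so its call is given as a description. The fibrillar chains Col3a1, Col5a2 and Col11a1 had 0 counts in all 8 libraries, and Col1a1 averaged 1.64 ± 0.359 CPM in shTlr7 and 2.22 ± 0.701 CPM in shCtrl (edgeR adjusted p = 0.124).

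Copper supply genes went both ways, with 4 of 13 tested genes higher and 5 lower (median log2 fold change -0.04; 6 and 4 under scaling by library size alone). The metalloreductases Steap2 and Steap3 fell, with log2 fold changes of -0.56 and -0.89 (edgeR adjusted p = 8.49e-07 and 5.70e-07). Atox1, the chaperone that hands copper to the secretory pathway, rose by 0.33 (edgeR adjusted p = 3.13e-05). The copper pump Atp7b fell by 1.10 (edgeR adjusted p = 4.86e-04) and was low, at 0.825 ± 0.185 CPM in shTlr7 and 1.80 ± 0.415 CPM in shCtrl. The other pump of the list, Atp7a, rose by 0.23 (edgeR adjusted p = 0.00530). Atp7a had 59.3 ± 4.66 CPM in shTlr7 and 50.6 ± 2.46 CPM in shCtrl, and the groups overlapped. Among oxygen sensors and ascorbate transporters, 5 of 10 tested genes were higher and 2 lower. Hif1a, the oxygen-regulated subunit of hypoxia-inducible factor, fell to 203 ± 14.1 CPM in shTlr7, against 284 ± 18.2 CPM in shCtrl (edgeR adjusted p = 1.14e-05). Genes whose products restrain it went both ways. Vhl, Hif1an and Egln3 were higher, with log2 fold changes of 0.63, 0.36 and 0.64 (edgeR adjusted p = 4.65e-06, 1.77e-05 and 1.09e-04). Egln1, the main prolyl hydroxylase of Hif1a, fell by 0.27 on the log2 scale (edgeR adjusted p = 0.00108), and Egln2 had a log2 fold change of 0.08 (edgeR adjusted p = 0.336).

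Of 18 tested hypoxia response genes, 0 were higher and 6 lower (median log2 fold change -0.13), by edgeR's quasi-likelihood test. The number higher was also 0 at an unadjusted p under 0.05 and 0 by DESeq2, and 1 by limma-voom. The split was 1 higher and 4 lower under scaling by library size alone, and 10 were lower without shTlr7 replicate 2. With copy rows summed, 0 were higher and 7 lower. The copy row of Eno1, which held nearly all its reads, had a log2 fold change of -0.65 (edgeR adjusted p = 1.73e-07). Vegfa, the vascular growth factor, fell by 0.96 on the log2 scale (edgeR adjusted p = 1.40e-06), Bnip3l by 0.46 (edgeR adjusted p = 1.09e-06) and Ldha by 0.30 (edgeR adjusted p = 2.00e-04). Slc2a1 and Egln3 were counted with the oxygen sensors and ascorbate transporters and not in this list. Both were higher, with log2 fold changes of 0.38 and 0.64 (edgeR adjusted p = 4.28e-05 and 1.09e-04). The number higher thus depends on which genes the hypoxia list holds. In the list of oxygen sensors and ascorbate transporters, 5 genes were higher and 2 lower. Oxygen in the spheroids was not measured.

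**Figure D4:**
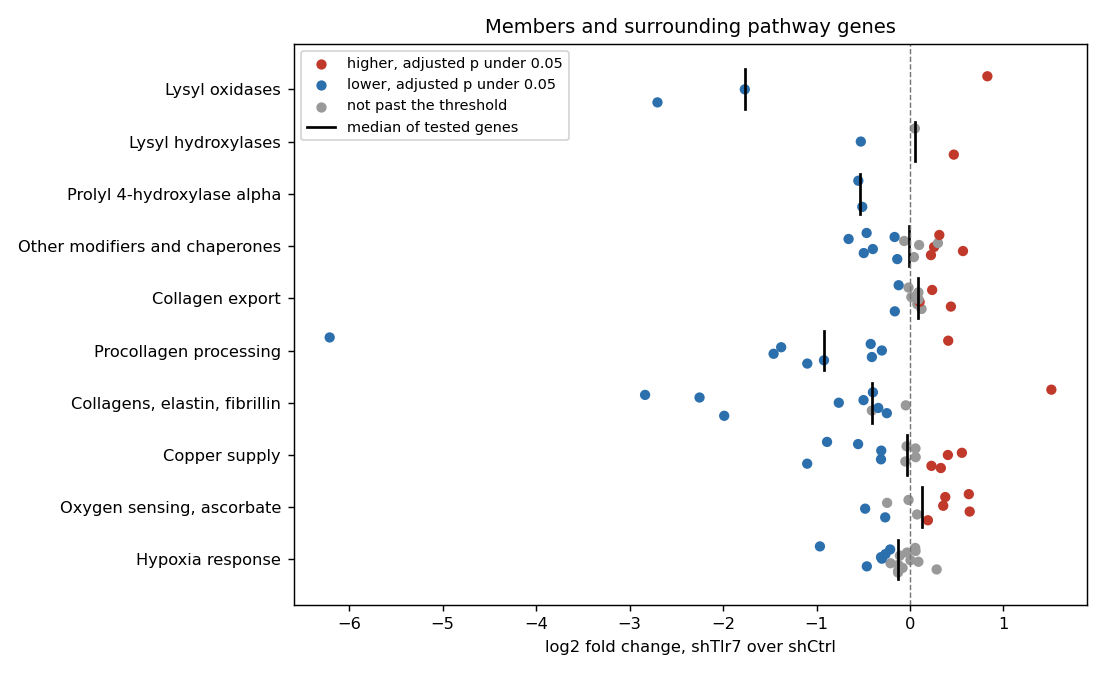
Log2 fold change of shTlr7 over shCtrl (horizontal axis) of each tested gene in the 3 member families (top) and the 7 surrounding lists, with calls at an adjusted p under 0.05 in red (higher) or blue (lower) and medians as black bars. Procollagen processing genes and collagens lie mostly left of 0, while export, copper supply and oxygen sensing genes scatter on both sides of it.

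Loxl3 was the member with the lowest p. Over the 8 libraries, the genes with log2 CPM most like it were Dio2, Gdpd5 and Ramp1, with Pearson's r of 0.999, 0.997 and 0.997. The points share the 2 groups and their libraries. Of all tested rows, 248 had an r above 0.98, Loxl3 itself among them, so this describes a pattern that many genes show. Rows with Gm, Rik or copy names were left out when naming genes but not from this number. Dio2 averaged 5.76 ± 0.166 CPM in shTlr7 and 18.8 ± 3.04 CPM in shCtrl.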

How the data were processed

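RNA-seq counts of 8 libraries of 4T1 spheroids were used, 4 shTlr7 and 4 shCtrl, grouped by their titles. The authors deposited whole-number read counts per gene, not normalized, with 1 column per library. Per the submitters' processing notes, STAR 2.7.5, DESeq2 1.32.0 and the build GRCm38 were used, without stated roles. Of the counter, the annotation and the strand setting nothing is given in the sources used here. Overlapping genes on opposite strands therefore cannot be told apart.

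The analysis used edgeR 4.0.16 under R 4.3.3 (filterByExpr, TMM, robust glmQLFit and glmQLFTest, group as the only term). This left 13393 genes, over which p-values were adjusted by Benjamini-Hochberg (threshold 0.05). CPM use TMM-scaled library sizes (factors 0.960 to 1.05). Standard errors are the log2 fold change over the square root of F. Lengths are unions of GENCODE M21 exons. The biological coefficient of variation was 6.76%. Intervals and limits from counts cover counting error only.

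The members and gene lists were chosen with earlier results of these data known. Named genes are the 10 members, and per list the 3 with the lowest p and the called gene with the largest change. Slc2a1, Atp7a, Egln1, Egln2, Eno1, P4hb, P4ha3, Pcsk6, Fbn1, Col1a1, Col4a1, Col4a2, Col7a1, Col18a1, Htra2, Znhit1 and genes at 0 were named outside this rule. Of the 106 list genes, Ero1l has no row under that name, and nearly all reads of Eno1 lie in a row with a copy suffix.

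Alternatives were RLE, upper-quartile and no scaling, DESeq2 1.42.0, limma-voom (limma 3.58.1), no filter, a minimum of 1 CPM in 4 libraries, a stricter adjusted p (0.01), testing against a fold of 1.5 (glmTreat), blocking on replicate number, leaving out each library, libraries thinned to 18.1 M counts and copy rows summed. Leaving out both libraries numbered 4 was added after seeing the data.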

Additional observations from a re-analysis of the deposited data

How the results depend on the processing

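Over 21 alternatives, 161 of 166 fold changes of the 8 tested members kept their direction and their side of the threshold, and none reversed. The stricter adjusted p and the test against a fold of 1.5 kept the fold changes of the main fit, so none could reverse there. The 2 settings not giving a value for Loxl1 were a minimum of 1 CPM in 4 libraries and thinned libraries, where it did not pass the filter. Against a fold of 1.5 (glmTreat), Plod1 (0.47), Plod2 (-0.53), P4ha1 (-0.51) and P4ha2 (-0.55) did not pass the threshold, since that test asks for a larger change. This left 1 member higher (Loxl4) and 2 lower (Loxl1 and Loxl3), beside 472 higher and 666 lower of all genes, and 1 higher and 12 lower of the list genes. The call of Loxl1 is again only a description. Under scaling by library size alone, Plod3 passed at 0.16, and 29 list genes were higher. All genes then split into 5513 higher and 2491 lower, against 3927 and 3590 with TMM. With that scaling, Loxl4 came to 51.6 CPM per kb in shCtrl. Without division by length, the share of Plod2 in its family was 54.0% in shTlr7 and 64.2% in shCtrl, and that of P4ha1 was 71.6% in shTlr7 and 71.0% in shCtrl.

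Leaving out 1 library at a time gave log2 fold changes from -2.96 to -2.53 for Loxl1, -1.83 to -1.64 for Loxl3, 0.75 to 0.90 for Loxl4, 0.40 to 0.54 for Plod1, -0.58 to -0.47 for Plod2, 0.03 to 0.07 for Plod3, -0.56 to -0.47 for P4ha1 and -0.60 to -0.47 for P4ha2, with 2 members higher and 5 lower each time. Without both libraries numbered 4, the counts were also 2 and 5, with Loxl3 at -1.64 and P4ha2 at -0.47. Of 504 fold changes of named list genes, 482 kept their call and 0 reversed, which the stricter adjusted p and the fold of 1.5 again could not do. Of 294 recomputed counts of higher or lower genes per list, 36 moved by over 1.5 times, 8 of them by leaving out 1 library (lower export genes in 7 and lower hypoxia response genes in 1).

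By the labels, same-numbered libraries share only a number. Their deviations from the group means correlated at -0.01, 0.11, 0.12 and 0.38 for numbers 1 to 4, and not every library correlated best with its own number. The libraries numbered 4 correlated negatively with all other-numbered libraries of the opposite group, from -0.314 to -0.0856. Deviations within a group cancel out gene by gene, so the positive value for number 4 by itself makes these negative on balance. The labels name no batch, and a batch shared by the libraries numbered 4 was not tested. With the replicate number as a block, 4334 genes were higher and 4005 lower, 2 members were higher and 5 lower, and the hypoxia response genes split into 1 higher and 10 lower, against 0 and 6 without the block.

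Low counts limit what can be said of Lox, Loxl1 and Loxl2, whose counts per library were at most 1, 70 and 15. Of these, only Loxl1 passed the filter on low counts in the main fit.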
